A study of Mus musculus with 4 samples.

Results

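The transcripts described here are those of 9 secreted, membrane and intracellular inhibitors of bone morphogenetic protein (BMP) signalling, out of 21839 genes in the expression table. They were chosen by name, with earlier results of these data known: Grem1, Nog, Chrd, Fst, Fstl1, Fstl3, Bambi, Smad6 and Smad7. All 9 were found in the table and each had reads in every library. RNA-seq was performed on mouse embryonic fibroblasts to ask how mesenchymal stem cells (MSCs) change fibroblast transcripts. The fibroblasts came from C57BL/6 embryos at day 13.5, had a genotype given as WT, and were grown for 48 h on the upper side of a polyester insert with 0.4 μm pores in DMEM with 10% fetal bovine serum. The 4 groups were fibroblasts alone, fibroblasts with bone marrow MSCs of C57BL/6 mice below the membrane, and both of these cultures with QNZ, an inhibitor of NF-κB whose dose and vehicle are not given in the sources used here. Only the fibroblast side was harvested, and each group was 1 library, so no spread between cultures is known and no test across libraries was made.

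BMPs are secreted ligands that bind type I and type II serine/threonine kinase receptors, which phosphorylate Smad1, Smad5 and Smad9. With Smad4, these Smads enter the nucleus and switch on target genes such as the Id genes. The pathway is held in check at each level: antagonists in the extracellular space keep ligands from their receptors, Bambi is a pseudoreceptor without a kinase domain, and Smad6 and Smad7 block the receptors and are themselves target genes of BMP and TGF-β signalling. In the intestine, Grem1 is known as a product of mesenchymal cells that surround epithelial stem cells.

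Promoter sequence is shown for 3 members because Smads bind DNA directly, Smad1 and Smad5 at GC-rich elements such as GGCGCC and Smad3 and Smad4 at the box CAGAC. RefSeq promoters of GRCm38.p6 matched 5 of the 9 members, Grem1, Chrd, Fstl1, Fstl3 and Smad6, and the 250 bases before each start site were searched on both strands for GGCGCC and GACGCC, for the box CAGAC, for its palindrome GTCTAGAC and for the NF-κB consensus. Capitals below mark matches of the first 3 motifs on either strand, each run reads 5′ to 3′ along the strand of its gene, and positions count back from the start site.
Grem1, chr2:113758649-113758898, minus strand: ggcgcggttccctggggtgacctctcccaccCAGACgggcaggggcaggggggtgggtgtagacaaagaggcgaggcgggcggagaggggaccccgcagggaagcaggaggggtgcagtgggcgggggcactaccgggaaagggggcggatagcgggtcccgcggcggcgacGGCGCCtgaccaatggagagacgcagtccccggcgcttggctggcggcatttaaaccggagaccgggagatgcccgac
Chrd, chr16:20732877-20733126, plus strand: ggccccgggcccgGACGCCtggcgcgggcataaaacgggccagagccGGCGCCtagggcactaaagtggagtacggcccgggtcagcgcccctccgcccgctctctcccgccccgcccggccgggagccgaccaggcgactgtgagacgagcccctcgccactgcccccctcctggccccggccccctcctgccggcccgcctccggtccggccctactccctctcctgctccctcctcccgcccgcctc
Smad6, chr9:64022060-64022309, minus strand: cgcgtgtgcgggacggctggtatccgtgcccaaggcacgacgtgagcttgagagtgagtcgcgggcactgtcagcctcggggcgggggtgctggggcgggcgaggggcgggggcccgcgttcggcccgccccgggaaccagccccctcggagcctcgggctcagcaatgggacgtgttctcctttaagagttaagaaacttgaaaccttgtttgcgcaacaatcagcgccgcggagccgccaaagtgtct
Grem1 held GGCGCC at -78 and CAGAC at -219, and Chrd held GGCGCC at -203 and GACGCC at -237. Smad6 held none of the motifs in this window. Fstl3 held GACGCC at -17, overlapping CAGAC at -14, and a further CAGAC at -161, and Fstl1 held none. GTCTAGAC and the NF-κB consensus were in none of the 5 windows. Of 32851 promoters of the same length, 9.59% held GGCGCC, 8.4% GACGCC, 42.2% CAGAC, 0.167% GTCTAGAC and 3.9% the NF-κB consensus. The GC content was 72% for Grem1, 78% for Chrd and 66.8% for Smad6, against a median of 52.4% over all promoters. A match is a description of letters and not of a bound site.

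Levels are given as FPKM, the reads of a gene per kilobase of its length and per 1000000 reads in the library, so that genes can be compared with each other. Grem1 (ENSMUSG00000074934, 2 exons, mm10 chr2:113746164-113758646, minus strand) encodes gremlin 1, a secreted antagonist of BMP2, BMP4 and BMP7. Its level was 60.0 alone and 717 in coculture, and in the cultures with QNZ it was 124 alone and 947 in coculture. Both cocultured libraries were above both libraries of fibroblasts alone, and within each pair the library with QNZ was the higher. These levels rest on 3836, 44204, 8142 and 51696 reads in the same order. Grem1 stood at place 912 among all genes by FPKM in fibroblasts alone and at place 25 in coculture, and with QNZ at places 376 and 12. Its transcripts took 0.0249% of the reads of fibroblasts alone and 0.393% of those of cocultured fibroblasts with QNZ. The ratio of coculture to alone was 11.9 (95% interval 11.6 to 12.3) without QNZ and 7.62 (7.44 to 7.80) with QNZ. Intervals throughout are exact binomial intervals for the ratio of reads per 1000000 and cover counting error only.

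Nog (ENSMUSG00000048616, 1 exon, chr11:89300638-89302332, minus strand) encodes noggin, which covers the receptor-binding surfaces of BMPs. Its level was 0.421 alone, 4.88 in coculture, 1.08 alone with QNZ and 1.97 in coculture with QNZ, from 11, 123, 29 and 44 reads. Nog was thus far below Grem1 in every library, and its highest value was in coculture without QNZ. The coculture ratio was 11.6 (6.25 to 23.8) without QNZ and 1.82 (1.11 to 3.02) with QNZ. Chrd (ENSMUSG00000006958, 23 exons, chr16:20733127-20742384, plus strand) encodes chordin, a large antagonist that releases BMPs when cleaved by proteases of the BMP1 family. Its level was 0.363, 1.54, 0.385 and 0.948 in the same order, from 35, 143, 38 and 78 reads, the lowest of the members in each library. The cocultured libraries were the 2 highest, with ratios of 4.23 (2.91 to 6.31) without QNZ and 2.46 (1.65 to 3.73) with QNZ. Chrd overlaps Thpo on the other strand and no source used here says whether the counting took account of strand, so its reads are uncertain.

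**Figure D1:**
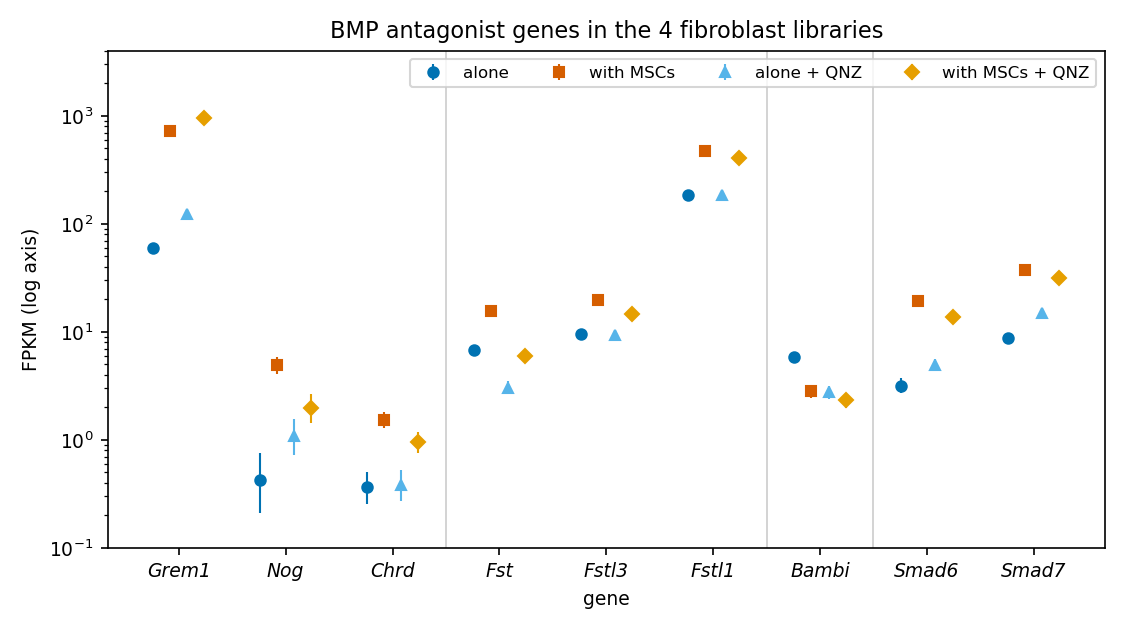
FPKM (log axis) of the 9 members in each of the 4 libraries, 1 point per library, with exact Poisson 95% intervals of the reads as vertical lines, hidden where smaller than the point. Grem1 goes from 60.0 alone to 717 in coculture, Fstl1 from 184 to 477, and Bambi is the 1 member that is highest in fibroblasts alone.

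Follistatin and follistatin-like 3 bind activins more tightly than BMPs. Fst (ENSMUSG00000021765, 6 exons, chr13:114452290-114458951, minus strand), which encodes follistatin, had a level of 6.80 alone, 15.7 in coculture, 3.04 alone with QNZ and 5.95 in coculture with QNZ. Unlike Grem1, Fst was lower in both libraries with QNZ than in their partners without it, and the library of fibroblasts alone and that of coculture with QNZ did not differ beyond counting error. The coculture ratio was 2.31 (2.07 to 2.58) without QNZ and 1.96 (1.65 to 2.33) with QNZ. Fst overlaps the antisense gene Gm47040, so its reads carry the same doubt as those of Chrd.

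Fstl1 (ENSMUSG00000022816, 11 exons, chr16:37776873-37836514, plus strand) encodes follistatin-like 1, a glycoprotein secreted by mesenchymal cells that can reduce BMP4 signalling. Its level was 184 alone, 477 in coculture, 183 alone with QNZ and 403 in coculture with QNZ, and in fibroblasts alone it was the member with the highest level. The ratio was 2.60 (2.54 to 2.65) without QNZ and 2.202 (2.16 to 2.25) with QNZ. Both libraries of fibroblasts alone had the same level within counting error. Fstl3 (ENSMUSG00000020325, 5 exons, chr10:79777272-79782630, plus strand) encodes follistatin-like 3, an inhibitor of activin and myostatin. Its level was 9.61, 19.6, 9.44 and 14.6 in the same order, again with no difference beyond counting error between the libraries of fibroblasts alone. The ratios were 2.04 (1.79 to 2.32) without QNZ and 1.54 (1.34 to 1.77) with QNZ. Fstl3 overlaps Prss57 on the other strand and its reads are uncertain in the same way.

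Bambi (ENSMUSG00000024232, 3 exons, chr18:3507923-3516404, plus strand) was the only member that was lower in coculture. Its level was 5.83 alone, 2.81 in coculture, 2.76 alone with QNZ and 2.34 in coculture with QNZ. The library of fibroblasts alone was above the other 3, whose neighbours in order did not differ beyond counting error. The coculture ratio was 0.482 (0.407 to 0.568) without QNZ and 0.847 (0.685 to 1.04) with QNZ.

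Smad6 (ENSMUSG00000036867, 4 exons, chr9:63953076-64022059, minus strand) encodes the inhibitory Smad that acts mainly on BMP receptors. Its level was 3.18 alone, 19.4 in coculture, 4.92 alone with QNZ and 13.7 in coculture with QNZ. Smad7 (ENSMUSG00000025880, 5 exons, chr18:75367529-75395935, plus strand) encodes the inhibitory Smad that acts on both BMP and TGF-β receptors, and its level was 8.73, 37.6, 14.9 and 31.4 in the same order. Both genes had the same order of libraries: coculture highest, then coculture with QNZ, alone with QNZ and alone, and each step in that order exceeded counting error. The ratio for Smad6 was 6.12 (5.16 to 7.29) without QNZ and 2.77 (2.39 to 3.23) with QNZ, and for Smad7 it was 4.31 (3.94 to 4.72) and 2.11 (1.96 to 2.28).

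**Figure D2:**
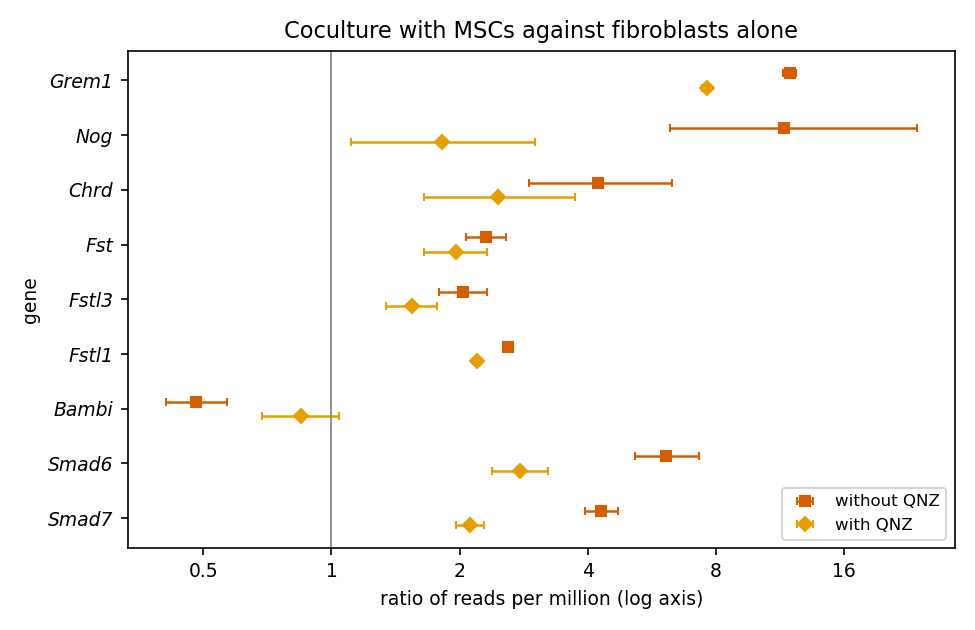
Ratio of coculture to fibroblasts alone in reads per 1000000 (log axis) for each member, without and with QNZ, with exact binomial 95% intervals for counting error. The ratio of Grem1 is 11.9 without QNZ and 7.62 with QNZ, while that of Bambi is 0.482 and 0.847.

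The differences between libraries were next compared with those of all genes, on the scale of log2(FPKM + 1), which understates the change of low genes. A difference of at least 1 in this value was taken as higher, and one of -1 or less as lower. In coculture against alone, 6 of 9 members were higher (Grem1, Nog, Fst, Fstl1, Smad6 and Smad7) and 0 were lower. Of all 21839 genes, 12.5% were higher and 5.73% lower. The members were chosen with earlier results of these data known, so this comparison is a description and not a test. Of 10610 genes with a mean FPKM of at least 1 over the 4 libraries, 24.3% were higher and 11.7% lower, and 8 of the 9 members, all but Chrd, belong to these genes. Grem1 had a difference of 3.56, Smad6 2.29, Nog 2.05 and Smad7 1.99. Fstl1 followed with 1.37 and Fst with 1.10, and Fstl3 with 0.96, Chrd with 0.90 and Bambi with -0.84 did not reach the size that was counted. The median of the 9 members was 1.37, that of the 8 was 1.68, and that of the 10610 genes was 0.31. A gene can pass this filter on the mean through the libraries where it is high. Among those genes Grem1 had place 7 by the size of its rise, Smad6 place 149, Nog place 315 and Smad7 place 377.

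In coculture with QNZ against alone with QNZ, which shares no library with the first pair, 4 of 9 members were higher and 0 lower. The background was 7.25% higher and 4.51% lower of all genes, and 14.4% and 9.25% of the 10610. The 4 were Grem1 with a difference of 2.92, Smad6 with 1.31, Fstl1 with 1.13 and Smad7 with 1.03. Nog had 0.51 and Fst 0.78, so both were below the counted size in this pair. Chrd had 0.49, Fstl3 0.58 and Bambi -0.17. The median of the members was 0.78, against 0.15 for the 10610 genes, and Grem1 had place 10 among these. Fewer cells of a type and less RNA per cell cannot be told apart in bulk samples such as these.

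The coculture difference was closer to 0 with QNZ than without it for every member. The same held for 72% of the 10610 genes, and for 91.5% of the 2583 among them that were higher by at least 1 in the pair without QNZ. The change of the log2 difference was -1.54 for Nog, -0.98 for Smad6, -0.96 for Smad7 and -0.64 for Grem1. For Chrd it was -0.40, for Fstl3 -0.38, for Fst -0.32 and for Fstl1 -0.24, and for Bambi, whose coculture difference was negative, 0.67. With 1 library in each of the 4 conditions these values have no replicate error. After median-of-ratios scaling the value of Fstl1 was 0.03, and the other 8 kept their sign under each scaling tried.

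QNZ against none was compared in fibroblasts alone and in coculture. These comparisons share libraries with those of coculture, so their values are given side by side and not as separate evidence. In fibroblasts alone, 1 of 9 members was higher (Grem1, 1.04) and 0 were lower, against 0.577% and 0.774% of all genes. In coculture, 0 were higher and 1 was lower (Fst, -1.27), against 0.16% and 0.394% of all genes. The ratio of Grem1 was 2.07 (1.99 to 2.15) in fibroblasts alone and 1.32 (1.31 to 1.34) in coculture, and that of Fst was 0.447 (0.379 to 0.525) and 0.378 (0.335 to 0.427). Grem1 was therefore higher with QNZ in both cultures and Fst lower in both. Bambi had ratios of 0.473 (0.401 to 0.557) and 0.832 (0.672 to 1.03). Fstl1, Fstl3 and Chrd had ratios of 0.996, 0.982 and 1.06 in fibroblasts alone, with intervals that include 1, and of 0.845, 0.743 and 0.617 in coculture, with intervals below 1.

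Nog, Smad6 and Smad7 lay on opposite sides of 1 in the 2 cultures. With QNZ, Nog had a ratio of 2.57 (1.25 to 5.71) in fibroblasts alone and 0.404 (0.280 to 0.575) in coculture. Smad6 had 1.55 (1.26 to 1.90) and 0.703 (0.632 to 0.780), and Smad7 had 1.71 (1.54 to 1.89) and 0.836 (0.787 to 0.888). The values in fibroblasts alone sit within a library pair whose median difference was 0.20 over the 10610 genes, against 0.05 in coculture.

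**Figure D3:**
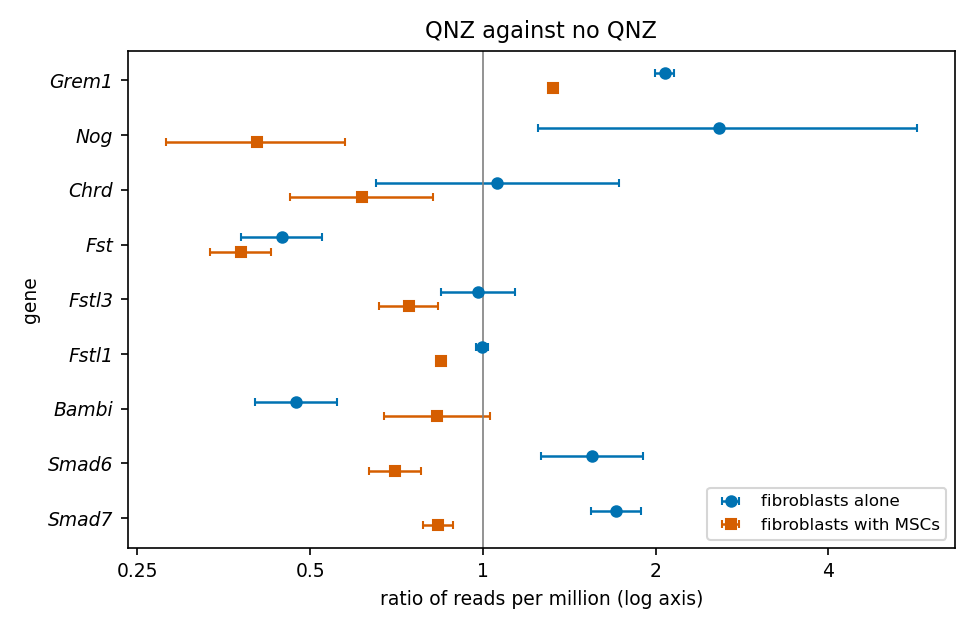
Ratio of QNZ to none in reads per 1000000 (log axis) for each member, in fibroblasts alone and in coculture, with exact binomial 95% intervals for counting error. Nog, Smad6 and Smad7 lie above 1 in fibroblasts alone and below 1 in coculture, Grem1 lies above 1 in both and Fst below 1 in both.

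The order of the members within a library changed between cultures. In fibroblasts alone the order by FPKM was Fstl1, Grem1, Fstl3, Smad7, Fst, Bambi, Smad6, Nog and Chrd. In coculture it was Grem1, Fstl1, Smad7, Fstl3, Smad6, Fst, Nog, Bambi and Chrd, so that Grem1 moved above Fstl1 and both inhibitory Smads moved up. Summed over Grem1, Nog and Chrd, the classical BMP antagonists, the FPKM was 60.8 alone, 723 in coculture, 126 alone with QNZ and 950 in coculture with QNZ, nearly all of it from Grem1. The FPKM of their ligands Bmp2 and Bmp4 together was 1.55, 3.72, 1.37 and 7.31 in the same order.

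The 5 genes most like Grem1 were taken from 6808 genes with a mean FPKM of at least 5 (predicted and Rik genes left out), by the Euclidean distance between profiles of log2(FPKM + 1), each centred on its own mean over the 4 libraries. They were Trp53inp1 at a distance of 0.343, Ogt at 0.354, Ero1l at 0.524, Dhrs3 at 0.527 and Nfat5 at 0.593. Trp53inp1, a p53-induced gene, had an FPKM of 2.59 alone, 30.5 in coculture, 6.07 alone with QNZ and 44.4 in coculture with QNZ. Ogt, which encodes the enzyme that adds N-acetylglucosamine to intracellular proteins, had 5.45, 73.5, 8.93 and 80.9. The distances come from 4 libraries and describe likeness of pattern only.

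The other genes of the pathway were taken from 8 lists. Beside their counts stand the shares of 12.5% of all genes and 24.3% of the 10610 higher in coculture against alone. In the pair with QNZ the shares were 7.25% and 14.4%. These shares hold for the deposited FPKM only. With TPM 6022 of all genes were higher in coculture against alone and 4102 in the pair with QNZ, in place of 2719 and 1584. Of 18 other extracellular antagonists, 5 were higher in coculture against alone and 0 lower, and 2 were higher in the pair with QNZ. The median in coculture against alone was 0.02 over all 18, which include genes without reads, and 1.24 over the 7 with a mean FPKM of at least 1. After median-of-ratios scaling 3 were higher in the pair without QNZ, and with QNZ 5 were higher with a pseudocount of 0.1 or with TPM. At a pseudocount of 0.1, 3518 of all genes were higher in the pair with QNZ. Kcp, whose product binds BMPs but is known in mice as an enhancer of their signalling, was higher in both pairs. Its FPKM was 0.274 alone, 4.08 in coculture, 0.528 alone with QNZ and 5.28 in coculture with QNZ. Twsg1, Crim1 and Bmper were higher in the pair without QNZ, and Cer1, Sost, Chrdl1, Chrdl2, Vwc2l and Fstl5 had 0 reads in every library. Dand5 had a difference of -0.28.

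Of 12 intracellular inhibitors, 4 were higher (Skil, Smurf2, Tob1 and Ski) and 0 lower. The median was 0.81, and 2 were higher with QNZ (Skil and Tob1). All 12 had a mean FPKM of at least 1, so 4 of 12 stand against the background of 24.3% with the deposited FPKM. The 4 became 2 after median-of-ratios scaling and 9 with TPM, while the higher genes of the whole table went from 2719 to 1477 and 6022. The 2 with QNZ became 1 after median-of-ratios scaling or removal of the length and GC trends, and 5 with TPM. Skil, a corepressor that binds Smads, had an FPKM of 3.58, 20.2, 5.64 and 20.6 in alone, coculture, alone with QNZ and coculture with QNZ. Smurf2, a ubiquitin ligase that brings Smads and receptors to degradation, had 5.03, 15.7, 9.57 and 15.2.

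Of 16 BMP and GDF ligands, 0 were higher and 0 lower in coculture against alone, and the median was 0.07. This count depends on the pseudocount of 1, since most ligands were near or below an FPKM of 1. With a pseudocount of 0.1, 4 were higher and the median was 0.47, with TPM 3 were higher, and after removal of the length and GC trends 2 were. Of all 21839 genes, 5114, 6022 and 1915 were higher under the same settings, in place of 2719. The ratios of reads were 2.52 (1.74 to 3.70) for Bmp2 and 2.30 (1.44 to 3.77) for Bmp4. Bmp2 had an FPKM of 0.767 alone, 1.93 in coculture, 1.09 alone with QNZ and 6.33 in coculture with QNZ. It was the 1 ligand counted as higher in coculture with QNZ, both against alone with QNZ (1.81) and against coculture without QNZ (1.32). Bmp4 had 0.780, 1.79, 0.282 and 0.981, from 27, 60, 10 and 29 reads, and Gdf11, the ligand with the highest level in fibroblasts alone, had 10.3, 8.46, 12.2 and 11.9. Of 6 activin and inhibin subunits and myostatin, among them the ligands that follistatin binds, 2 were higher in both coculture pairs, and 1 in each pair after removal of the length and GC trends. The 2 were Inhba, with 31.8, 117, 48.8 and 106, and Inha, with 0.484, 11.6, 1.59 and 6.24. Of 3 proteases that cleave chordin, 0 were counted, and Bmp1 had 38.3, 44.8, 25.0 and 35.1.

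Of 11 receptors and co-receptors, 5 were higher in coculture against alone and 0 lower. The 11 include 10 of the 10610 genes, of which 24.3% were higher in this comparison and 14.4% in the pair with QNZ. The median of the 11 was 0.68, and 4 were higher with QNZ. Bmpr2, the type II BMP receptor, had an FPKM of 2.11 alone, 15.4 in coculture, 2.59 alone with QNZ and 13.8 in coculture with QNZ, and Bmpr1a, a type I receptor, had 4.66, 20.5, 6.57 and 18.1. Acvrl1 and its co-receptor Eng, known from endothelial cells, had coculture differences of -0.27 and -0.19. After removal of the trends with gene length and GC content, 2 of the 11 were higher, and after median-of-ratios scaling also 2. With QNZ, 1 and 2 were higher under these settings, and with TPM 7 were higher in each pair. Of 6 receptor-regulated and common Smads, all among the 10610 genes, 4 were higher and 0 lower. Their median was 1.21, and 2 were higher with QNZ. After median-of-ratios scaling 2 were higher without QNZ, with a median of 0.74, and 1 with QNZ, and with TPM 6 and 3 were. Smad9 had 0.254, 4.76, 0.708 and 2.80, Smad5 had 2.91, 12.0, 4.87 and 12.95, and Smad1 had 4.26, 10.2, 6.31 and 9.70. Smad4, the common Smad, had a difference of 0.76.

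Of 10 BMP target genes, 4 were higher in coculture (Id2, Atoh8, Id4 and Gata2) and 0 lower. The 10 include 7 of the 10610 genes, of which 24.3% were higher in coculture and 14.4% in the pair with QNZ. The median of the 10 was 0.80, and 3 were higher with QNZ (Atoh8, Id2 and Id4). After median-of-ratios scaling 3 were higher without QNZ, with a median of 0.49, and 3 with QNZ. With TPM 7 were higher without QNZ, and after removal of the length trend 5 were higher with QNZ. Over all genes, 6022 were higher with TPM without QNZ, and 1305 after removal of the length trend with QNZ. Id2, an inhibitor of helix-loop-helix transcription factors, had an FPKM of 5.00 alone, 41.9 in coculture, 10.4 alone with QNZ and 29.2 in coculture with QNZ. Its 4 libraries stood in the same order as those of Smad6 and Smad7. Id1 had 74.4, 142, 95.7 and 126, with a difference of 0.92, and Id3 had 207, 248, 161 and 196, with a difference of 0.26. Id4 was the 1 target counted as lower with QNZ in coculture, from 16.5 to 7.74. No gene of the 8 lists was counted with QNZ in fibroblasts alone.

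**Figure D4:**
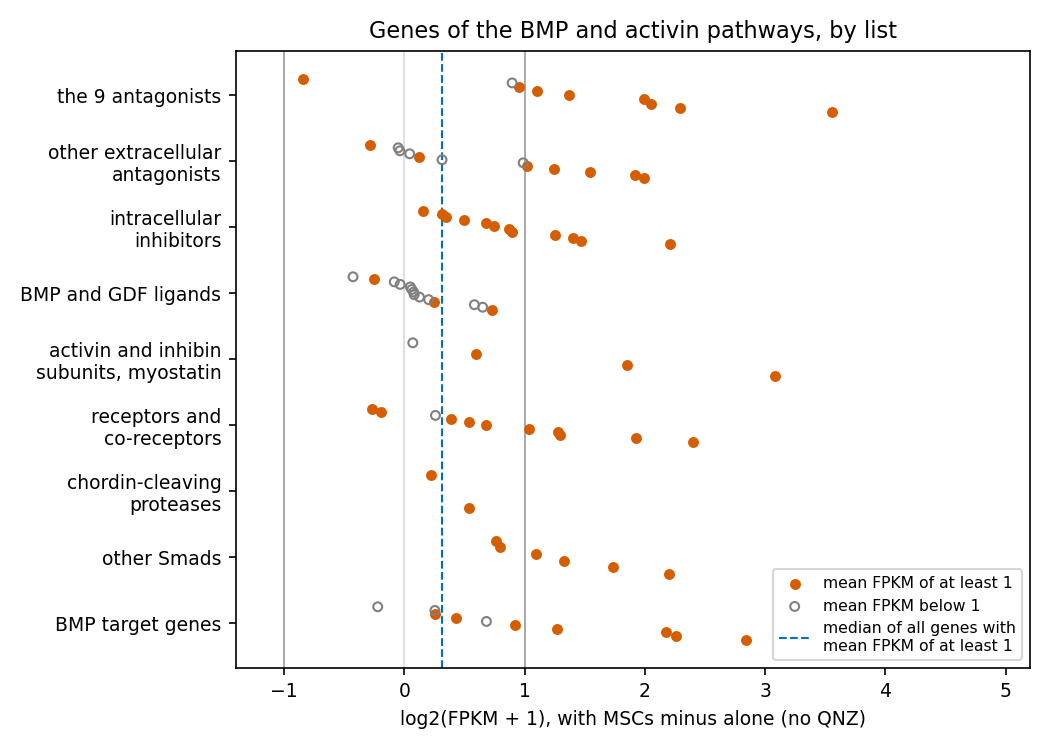
Difference of log2(FPKM + 1) between coculture and fibroblasts alone, both without QNZ, 1 point per gene and 1 line of points per list, with filled points at a mean FPKM of at least 1, grey lines at the counted size, and a dashed line at the median of the 10610 genes (0.31). Genes with 0 reads in both libraries are not drawn. Of the 9 members 6 lie at or beyond 1 (8 with a pseudocount of 0.1), with Grem1 farthest to the right at 3.56. Of the 16 ligands 0 do (4 with a pseudocount of 0.1), but only 3 of them had a mean FPKM of at least 1, against 8 of the members. With the pseudocount of 1, 12.5% of all genes were higher, and 24.3% of the 10610. With a pseudocount of 0.1, 5114 of all 21839 genes were higher, in place of 2719.

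Facts of the whole table bear on these values. The libraries held 13153696 to 15778488 reads assigned to genes, and 9590 to 10942 genes had an FPKM of at least 1. The share of mitochondrial reads was 0.291% alone, 0.738% in coculture, 0.580% alone with QNZ and 1.49% in coculture with QNZ. All 10 fibroblast markers had an FPKM of at least 1 in every library, with sums of 1170 to 2101. Of the 10, 5 were higher and 0 lower in coculture against alone, with a median difference of 0.75, and Vim (-0.75) and Thy1 (-0.37) were below 0. In the pair with QNZ 6 were higher, with a median of 1.24. With QNZ in fibroblasts alone 6 of the 10 were lower, with a median of -1.03, against 0.774% of all genes. The library of fibroblasts alone with QNZ is also the reference of the pair with QNZ. Of the 10610 genes 24.3% were higher in coculture against alone and 14.4% in the pair with QNZ. After median-of-ratios scaling 1 fibroblast marker was higher and 1 lower without QNZ, and 5 were higher with QNZ. After removal of the length trend 1 and 4 were higher, and with TPM 5 and 7. Of 8 markers of bone marrow stromal cells, 4 were higher in both coculture pairs (Cxcl12, Kitl, Foxc1 and Lpl), with sums of 52.9 alone, 157 in coculture, 52.1 alone with QNZ and 143 in coculture with QNZ. Of their defining markers, Adipoq had 0, 10, 0 and 3 reads and Lepr 3, 23, 16 and 39 reads in the same order. After median-of-ratios scaling 2 of the 8 stromal markers were higher without QNZ and 3 with QNZ, and with TPM 6 and 5 were. Of 8 macrophage markers, 2 were higher in coculture (Cd68 and Lyz2), with sums of 8.07 to 16.4, and Ptprc had 0 to 5 reads. Of 6 osteoblast markers, 2 were higher in coculture (Runx2 and Sp7), with sums of 2.14 to 9.19, and Ibsp and Dmp1 had 0 reads in every library. After median-of-ratios scaling 0 macrophage markers and 1 osteoblast marker were higher in coculture against alone, and with TPM 4 and 2 were. Endothelial markers summed to 0.270 to 0.631 and epithelial markers to 3.08 to 6.76. The part of the mitochondrial share and of these other cell types in the differences of the members was not tested.

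Median-of-ratios scaling and TPM multiply all genes of a library by a common factor, while removal of the length trend moves genes in different directions. In coculture against alone that removal took the difference of Nog from 2.05 to 2.93 and that of Chrd from 0.90 to 0.68. In coculture against alone, 2719 genes were higher and 1252 lower with the deposited FPKM, 1477 and 2344 after median-of-ratios scaling, 6022 and 661 after rescaling to TPM, and 2297 and 607 after removal of the trend with gene length. The median of the 10610 genes was 0.31 with the deposited FPKM, -0.13 after median-of-ratios scaling and 0.85 after rescaling to TPM. The difference of Grem1 was 3.03 to 4.09 over the 6 settings, and that of Nog was 1.78 to 3.26. Smad6 had 1.84 to 2.998 and Smad7 1.49 to 2.58, so that these 4 were counted as higher under each setting. Fst had 0.62 and Fstl1 0.84 after median-of-ratios scaling and were not counted there, and Fst had 0.82 after removal of the trends with length and GC content. Fstl3 came to be counted as higher with a pseudocount of 0.1 (1.02) and with TPM (1.51). It was also counted after removal of the length trend (1.59) or the length and GC trends (1.65), but had 0.46 after median-of-ratios scaling. Chrd was counted as higher with a pseudocount of 0.1 (1.82) and with TPM (1.84), and under no other setting. Bambi was below 0 under each setting, from -1.28 to -0.50.

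**Figure D5:**
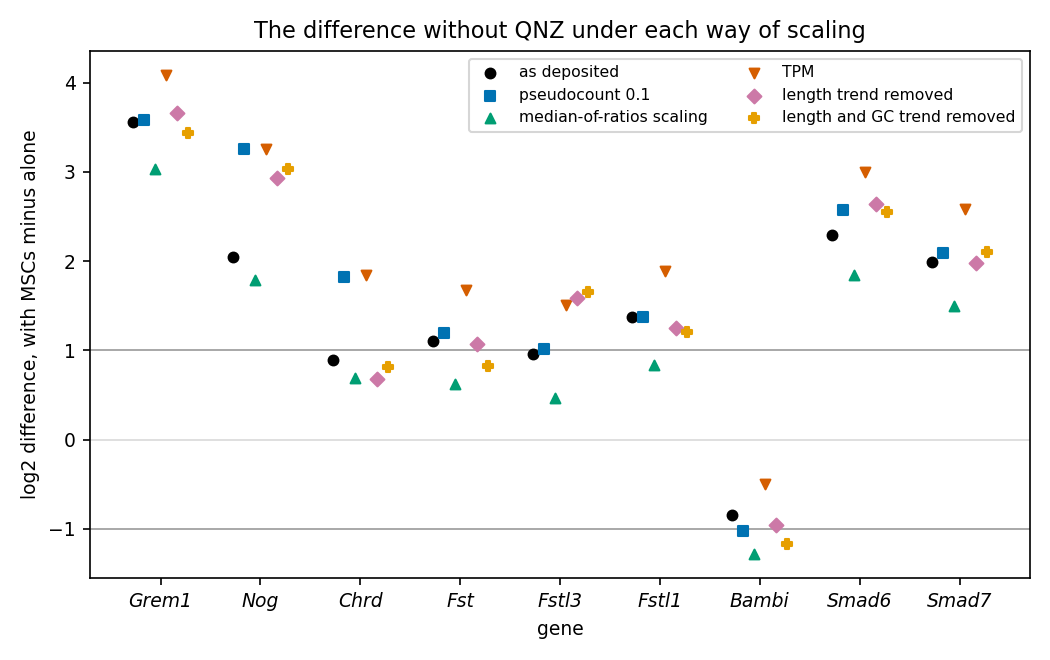
Difference of log2 values (log2 axis units) between coculture and fibroblasts alone for each member under the deposited FPKM and 5 other settings, 1 point per setting, with grey lines at the counted size. Grem1 lies between 3.03 and 4.09 and Bambi between -1.28 and -0.50.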

How the data were processed

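RNA-seq libraries of mouse embryonic fibroblasts were analysed, 4 in all and 1 per condition, each at 48 h. Stranded libraries were made with dUTP, and the submitters' processing notes name STAR 2.5.4b, mm10 and Cuffnorm of Cufflinks 2.2.1. In the 1 table that the authors deposited, each gene has a count of reads and an FPKM for every library. The read counter, annotation and strand setting are not given in the sources used here. The deposited FPKM could be rebuilt from counts, gene lengths and library totals within a relative tolerance of 1e-06, with 0 gene IDs that differed. Gene IDs that share a symbol (23 symbols) were added together, giving 21839 genes.

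Differences were taken as log2(FPKM + 1) and counted at a size of at least 1. Ratios of reads per 1000000 were given exact binomial intervals and reads exact Poisson intervals, at 95%. With 13153696 to 15778488 reads per library, 3 reads, the limit that a count of 0 allows, are 0.190 to 0.228 reads per 1000000. With 1 library per condition no model was fitted and no p-value is given. The 4 comparisons were coculture against alone, without and with QNZ, and QNZ against none, alone and in coculture.

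The members and the lists were chosen with earlier results of these data known. Named from each other list were the 2 genes with the largest difference in each direction in coculture against alone among those with a mean FPKM of at least 1, and Id1, Id2, Id3, Bmp2, Bmp4, Inhba, Bmpr2, Smad1, Smad5 and Smad4. Genes named beside a count that fall outside this rule, such as Tob1, Twsg1, Id4 and the markers, were named after their values were seen. Not every gene covered by this rule is reported here. The receptor gene Hfe2 was not found in the table under that symbol.

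Alternatives were a pseudocount of 0.1, only genes with a mean FPKM of at least 1, median-of-ratios scaling, TPM (the FPKM rescaled to a sum of 1000000), and removal of lowess trends (span 0.3) with gene length, or with length and GC content in 3 rounds. GC content and overlaps came from GENCODE M21 and promoters from RefSeq. The counting rule was tested on simulated data. Scripts ran under Python 3.11.15 with pandas 2.3.3 and numpy 2.4.6, intervals came from scipy 1.17.1, trends from statsmodels 0.14.6 and plots from matplotlib 3.10.9.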

Additional observations from a re-analysis of the deposited data

Results flagged for a closer look

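Nog, Smad6 and Smad7 stood out because their ratio of QNZ to none lay above 1 in fibroblasts alone and below 1 in coculture. The ratio of Nog was 2.57 in fibroblasts alone and 0.404 in coculture, that of Smad6 was 1.55 and 0.703, and that of Smad7 was 1.71 and 0.836. Each of the 6 intervals for counting error excludes 1, and the opposite directions held under each of the 6 settings. With 1 library per condition the difference between the cultures was not tested. Nog rests on 11, 29, 123 and 44 reads in fibroblasts alone, alone with QNZ, coculture and coculture with QNZ.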

How the results depend on the processing

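No paired analysis was possible because each condition had 1 library, and for the same reason no replicate could be left out. Of 212 differences of single genes under an alternative, 180 stayed on their side of the counted size. A further 7 no longer reached it, 25 came to reach it and 0 were counted in the other direction. The 180 include every entry of the setting with only genes at a mean FPKM of at least 1. That setting leaves each difference as it was, so its entries could not move and say nothing on stability. In coculture against alone, 1 member, Bambi, was counted as lower with a pseudocount of 0.1 (-1.03), after median-of-ratios scaling (-1.28) and after removal of the length and GC trends (-1.17). In the pair with QNZ, 2 members were higher after median-of-ratios scaling and 7 after rescaling to TPM, in place of 4. With QNZ in fibroblasts alone, 2 members were higher and 2 lower with a pseudocount of 0.1, 0 higher and 2 lower after median-of-ratios scaling, where Grem1 had 0.75, and 0 higher and 1 lower after removal of the length and GC trends, where Grem1 had 0.97. With QNZ in coculture, 2 members were lower with a pseudocount of 0.1 and also with TPM, in place of 1. Restricting the background to genes with a mean FPKM of at least 1 removed Chrd, and by its design it could not change the difference of any other member. Chrd, Fstl1 and Fstl3 with QNZ in fibroblasts alone, and Bambi in the pair with QNZ, changed sign between settings while below the counted size. The cause of these shifts was not tested. For Nog and Chrd, depth limits precision, with 11 and 35 reads in fibroblasts alone.

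Over all genes, the counts of higher and lower genes in the pair with QNZ were 1584 and 986 with the deposited FPKM, 3518 and 1418 with a pseudocount of 0.1, 1013 and 1498 after median-of-ratios scaling, 4102 and 600 with TPM, 1305 and 485 without the length trend and 984 and 554 without the length and GC trends. In coculture against alone they were 5114 and 1622 with a pseudocount of 0.1 and 1915 and 679 without the length and GC trends. With QNZ in fibroblasts alone they were 126 and 169, 876 and 469, 44 and 320, 599 and 200, 162 and 137, and 160 and 133 in the same order of settings, and with QNZ in coculture 35 and 86, 328 and 590, 32 and 80, 126 and 284, 42 and 78, and 42 and 78.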
